A study of Urocitellus parryii with 3 samples.

Results

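The let-7 family of miRNAs was followed in small RNA from livers of Urocitellus parryii, the arctic ground squirrel, which spends winter in bouts of deep torpor broken by short arousals. Members were chosen by sequence: a read belonged to the family when its first 18 bases were those of the mature 5p form of let-7a, let-7b, let-7c, let-7d, let-7f, let-7i or miR-98. The longest shared start decided between members, and reads that tied were split equally. All 7 members had reads. Together they held 2469355 of 17086590 placed reads, in 30588 of 576915 distinct read sequences.

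let-7 was discovered in Caenorhabditis elegans as a switch in developmental timing, and it is one of the most conserved animal miRNA families. Its members share the seed, the bases near the 5′ end that pair with target mRNAs, and are known to hold down growth genes such as those of the RAS and insulin-like growth factor pathways. LIN28 proteins bind let-7 precursors and block their maturation in embryonic cells, and mature let-7 is abundant in differentiated tissues such as adult liver. The 3′ end of a mature miRNA is set by where Drosha and Dicer cut, and can then be trimmed or lengthened by enzymes that add U or A.

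The study has 3 libraries of RNA from wild-caught animals kept in captivity. Early arousal (EA) was a mix of RNA from 4 livers and late torpor (LT) of 4 livers. Both came from hibernating animals under 4 h of light and 20 h of dark that had passed through at least 4 torpor bouts. Post-reproduction (PR), the non-hibernating summer state, was a mix from 6 livers of animals with normal body temperature under 16 h of light and 8 h of dark. The labels give day 4 of a torpor bout as the time of sampling without saying what that means for early arousal. The hibernating animals carried implanted radio transmitters and PR animals were anaesthetised with isoflurane before death, so hibernation, light cycle, implant and anaesthesia cannot be told apart. Because each stage is 1 library of mixed RNA, there is no replicate and no test between stages. Every interval is a 95% interval that covers counting error only, and the ratios compare libraries.

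The table held 5611673 placed reads from EA, 5860476 from LT and 5614441 from PR. The hepatocyte miRNA miR-122-5p, which marks the labelled tissue, made up 72.4% of them in EA, 76.3% in LT and 74.9% in PR. Markers of other cells had far fewer reads than miR-122-5p and moved between libraries. The red-cell miR-451a had 443 reads in EA, 744 in LT and 356 in PR, and the leukocyte miR-142-5p had 336, 454 and 257 in the same order. Stellate and smooth muscle markers ran from 8197 to 12768 reads for miR-143-3p and from 10327 to 12360 for miR-199a-3p. The epithelial miR-200a-3p had 71, 83 and 170 reads and the endothelial miR-126-3p had 48, 71 and 55, again for EA, LT and PR. Their part in the let-7 results was not tested. In tissue RNA, fewer cells of a type and less RNA per cell cannot be told apart.

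The mature form of each member was read from the deposited sequences as its most abundant insert, and the members are shown side by side because they differ by a few bases only. All are 22 nt long, and the capitals mark the seed, bases 2 to 8, which is the same in all 7.
let-7a-5p: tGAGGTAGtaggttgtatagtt
let-7b-5p: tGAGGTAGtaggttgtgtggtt
let-7c-5p: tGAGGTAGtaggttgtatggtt
let-7d-5p: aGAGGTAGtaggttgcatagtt
let-7f-5p: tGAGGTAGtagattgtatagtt
let-7i-5p: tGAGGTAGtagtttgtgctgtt
miR-98-5p: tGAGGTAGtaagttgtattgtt

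Counted from the 5′ end, let-7f differs from let-7a by G12A alone and let-7c by A19G alone. let-7b differs from let-7a by A17G and A19G, let-7d by T1A and T16C, and miR-98 by G11A and A19T. let-7i stands furthest off, with G12T, A17G, T18C and A19T. let-7a and let-7c share exactly 18 bases, so their reads were told apart by base 19. In let-7f reads, whose form has A at that base, G was read there in 0.265% of EA, 0.126% of LT and 0.139% of PR reads. Applied to let-7a, such rates would give 0.493% of the EA let-7c reads, 0.239% of the LT ones and 0.213% of the PR ones. Tied reads were 0.305% of the family in EA, 0.143% in LT and 0.187% in PR.

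The reads were placed on scaffolds of a genome whose build is not given in the sources used here, and their annotation was not analysed here. The members lay at 10 positions, several of them close together. On scaffold 107439, plus strand, let-7a (5478 to 5499), let-7f (5829 to 5850) and let-7d (7654 to 7675) followed each other, with 351 bases between the starts of the first pair and 1825 between let-7f and let-7d. On scaffold 79787, plus strand, let-7a (3446 to 3467) lay 843 bases before let-7b (4289 to 4310). On GeneScaffold 467, minus strand, let-7f (185557 to 185578) lay 858 bases upstream of miR-98 (184699 to 184720). A further let-7a copy lay on scaffold 149717, plus strand (102734 to 102755), and let-7c on scaffold 143154, plus strand (5460 to 5481). Of let-7i the leading 18 bases were placed, on scaffold 141407, plus strand (1000 to 1017). Reads of let-7a, let-7c and let-7f were placed at more than 1 position almost without exception. The copies of let-7a, and those of let-7f, therefore cannot be counted apart. let-7c had 1 position that held its whole mature form, and its first 18 bases are also those of let-7a.

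let-7f dominated the family in every library, and the order of the members was the same in all 3: let-7f, let-7a, let-7c, let-7b, let-7i, let-7d and miR-98. let-7f had 606515 reads in EA, 624318 in LT and 550101 in PR. That is 72.1% of family reads in EA (72.1 to 72.2), 73.6% in LT (73.5 to 73.7) and 70.5% in PR (70.4 to 70.6). The intervals do not overlap, and the hibernating libraries lie above PR. let-7a, its neighbour on the 3-member scaffold, had 117689 reads in EA, 114096.5 in LT and 102457 in PR, or 14.0%, 13.5% and 13.1% of the family.

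**Figure D1:**
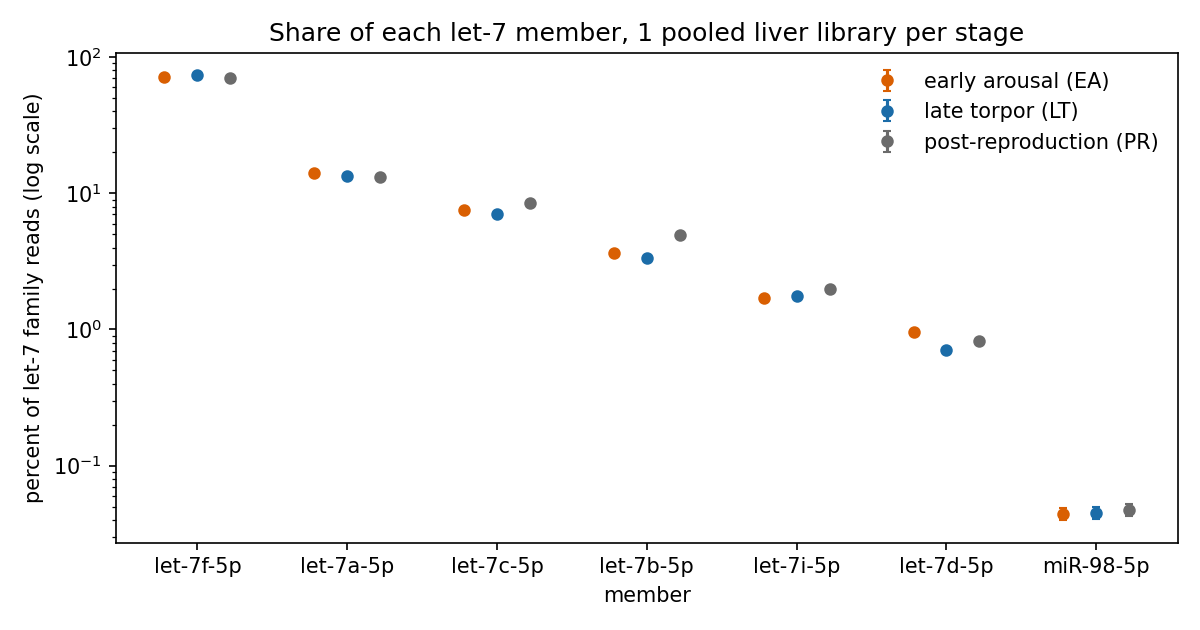
Percent of let-7 family reads (log axis) held by each member in the early arousal, late torpor and post-reproduction libraries; points are 1 pooled library each and bars are exact binomial 95% intervals. The shares run from 72.1% of EA reads for let-7f-5p down to 0.0440% for miR-98-5p, in the same order in each library.

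let-7b set the hibernating libraries apart from PR most clearly within the family. It had 30445 reads in EA and 28226 in LT, against 38776 in PR. Its share of the family was 3.62% in EA (3.58 to 3.66) and 3.33% in LT (3.29 to 3.37), against 4.97% in PR (4.92 to 5.02). The share ratio was 0.729 for EA over PR (0.718 to 0.740) and 0.670 for LT over PR (0.660 to 0.680). let-7c, which differs from let-7b by a single base, leaned the same way but less, with 7.53% in EA and 7.11% in LT, against 8.56% in PR. Its share ratios were 0.879 for EA over PR (0.869 to 0.888) and 0.830 for LT over PR (0.821 to 0.839).

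Set against let-7a, which has a copy 843 bases before it, let-7b had 25.9 reads per 100 let-7a reads in EA (25.5 to 26.2) and 24.7 in LT (24.4 to 25.1), against 37.8 in PR (37.4 to 38.3). let-7a is also encoded elsewhere, so these values do not describe that scaffold alone. Per 100 reads of let-7c there were 48.1 let-7b reads in EA, 46.8 in LT and 58.0 in PR.

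let-7i and let-7d were minor members with different patterns. let-7i had 14333 reads in EA, 14975 in LT and 15528 in PR, a share of 1.71% in EA and 1.77% in LT, against 1.99% in PR. In share of the family both hibernating libraries were below PR, at share ratios of 0.857 (0.838 to 0.877) for EA and 0.887 (0.868 to 0.908) for LT. let-7d had 8017 reads in EA, 5969 in LT and 6410 in PR. Of the 7 shares of the family, that of let-7d had the ratio furthest from 1 between the hibernating libraries, at 0.954% in EA (0.933 to 0.975) and 0.704% in LT (0.686 to 0.722), beside 0.821% in PR (0.801 to 0.842). Its share ratio was 1.36 for EA over LT (1.31 to 1.402). For EA over PR it was 1.16 (1.12 to 1.2002) and for LT over PR 0.857 (0.827 to 0.888), so EA lay above PR and LT below it. Per 100 reads of let-7f, which lies on the same scaffold, there were 1.32 let-7d reads in EA, 0.956 in LT and 1.17 in PR.

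miR-98, which has another name for historical reasons but carries the let-7 seed, was rare. It had 370 reads in EA, 383 in LT and 368 in PR, or 0.0440%, 0.0452% and 0.0472% of the family. The intervals overlap in all 3 comparisons, with share ratios of 0.933 (0.806 to 1.08) for EA over PR and 0.958 (0.828 to 1.11) for LT over PR. Of its reads, 88.6% in EA, 86.2% in LT and 87.8% in PR shared 20 bases or more with its form, and 7.84%, 9.92% and 9.24% ended as let-7a or let-7c do.

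**Figure D2:**
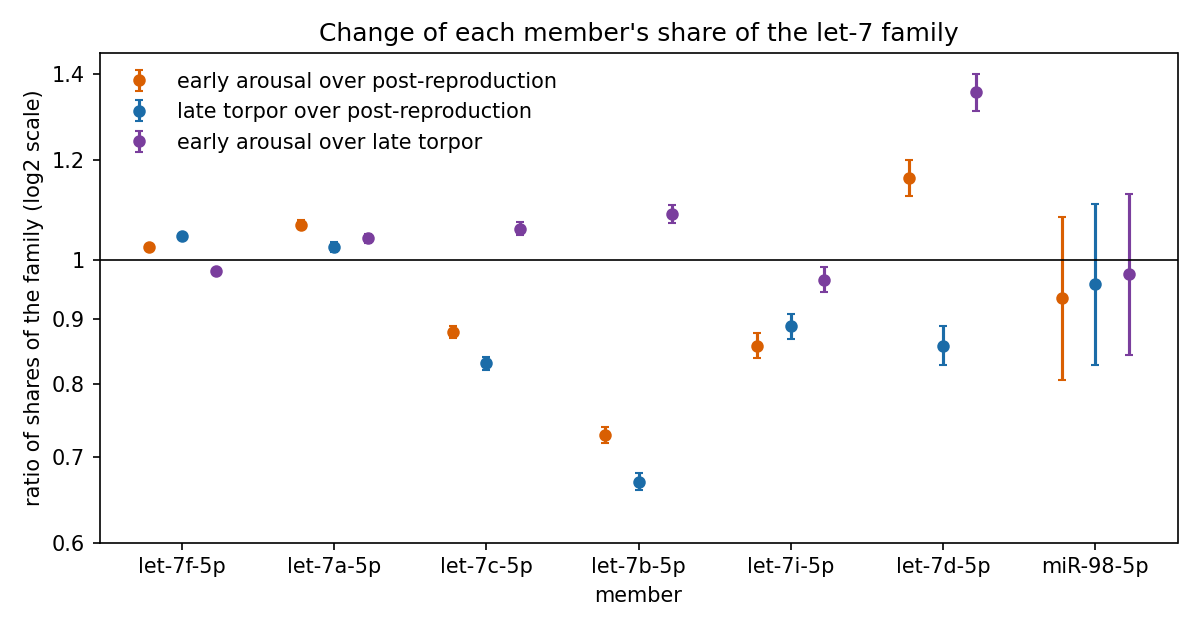
Ratio of each member's share of the let-7 family (log2 axis) for early arousal over post-reproduction, late torpor over post-reproduction and early arousal over late torpor; bars are 95% counting intervals and the line marks a ratio of 1. let-7b-5p lies lowest in both comparisons with PR, at 0.729 and 0.670, and let-7d-5p highest for EA over LT, at 1.36.

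The level of the whole family depended on how the libraries were scaled. Family reads were 840633 in EA, 848242 in LT and 780480 in PR. Of all placed reads these were 15.0% in EA (14.95 to 15.01), 14.5% in LT (14.4 to 14.5) and 13.9% in PR (13.9 to 13.9). With trimmed-mean factors over the 824 distinct 18-base starts of at least 100 reads, the levels became 129774 CPM in EA, 168816 in LT and 144800 in PR, where CPM are reads divided by the scaled library total. The ratios were then 0.896 for EA over PR (0.893 to 0.899), 1.17 for LT over PR (1.16 to 1.17) and 0.769 for EA over LT (0.766 to 0.771). Scaled to all placed reads instead, they were 1.08, 1.04 and 1.03, so EA against PR and EA against LT turned round and LT against PR did not. Relative to the trimmed-mean scale, that choice moved every log2 ratio by 0.27 for EA over PR, by -0.16 for LT over PR and by 0.43 for EA over LT. The shares within the family given above do not depend on it.

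**Figure D3:**
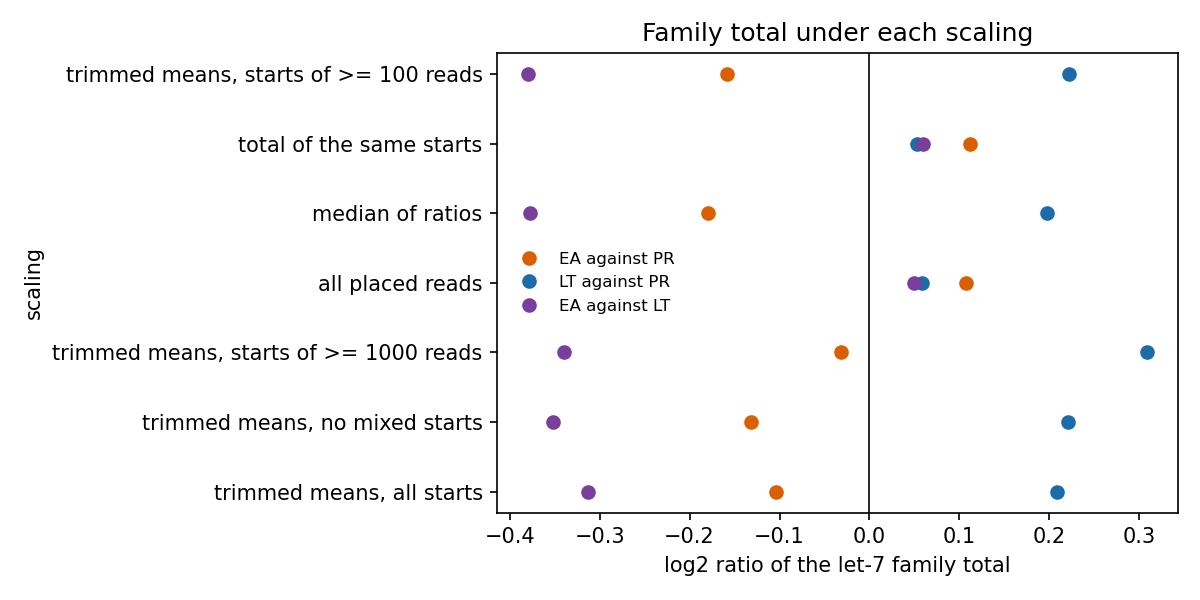
Log2 ratio of the let-7 family total in EA against PR, LT against PR and EA against LT (horizontal axis) under 7 scalings of the libraries (rows). LT against PR is above 0 in each row, from 0.05 to 0.31, while EA against PR and EA against LT are above 0 under the totals of the same starts and of all placed reads and below 0 under the others.

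On the trimmed-mean scale, let-7b was at 4700 CPM in EA, 5617 in LT and 7194 in PR. Its ratio was 0.653 for EA over PR (0.644 to 0.663), 0.781 for LT over PR (0.769 to 0.793) and 0.837 for EA over LT (0.823 to 0.850). Scaled to all placed reads it stayed below 1 in EA and in LT against PR, while EA over LT turned to a log2 ratio of 0.17. let-7b was the 1 member of 7 at least 1.5-fold different in EA against PR, where 44.3% of all 607 starts with at least 100 reads over both libraries passed that limit. None of the 7 passed it in LT against PR, where 49.8% of 580 starts did, or in EA against LT, where 36.7% of 586 did. At 2-fold no member passed in any comparison, beside 22.6% of starts for EA against PR, 35% for LT against PR and 16.4% for EA against LT. Most of these starts are far less abundant than the let-7 members. With plain totals let-7b too lay within 1.5-fold, and no member passed.

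The 7 log2 ratios had a median of -0.26 for EA against PR, 0.05 for LT against PR and -0.32 for EA against LT. The median over all starts was -0.00, 0.01 and -0.08 for the same comparisons. let-7f stood at 93632 CPM in EA, 124251 in LT and 102058 in PR, a ratio of 0.917 for EA over PR and 1.22 for LT over PR. Scaled to all placed reads, EA over PR turned to a log2 ratio of 0.14 for let-7f. On the trimmed-mean scale let-7i had a ratio of 0.768 for EA over PR (0.751 to 0.786). Its ratio for LT over PR was 1.03 (1.01 to 1.06), although its share of the family was lower in LT. For let-7d, LT over PR was 0.999 (0.964 to 1.03), again beside a lower share. let-7d was the 1 member with a ratio above 1 for EA over LT, at 1.04 (1.01 to 1.08), and its log2 ratio is also above 0 with plain totals, where let-7a, let-7b, let-7c, let-7f, let-7i and miR-98 turned above 0 as well.

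The starts with a pattern most like the family's were looked for among 68 other starts of at least 1000 reads in each library, by distance over the pair of log2 ratios to PR. The nearest was that of miR-29a-3p, known to hold down collagen genes, with 28948 reads in EA, 27617 in LT and 25908 in PR. The next differs from the miR-122-5p start by 1 base, with 5762, 5287 and 5204 reads for EA, LT and PR. The third was miR-26a-5p, with 13437, 13423 and 11726. The miR-122-5p start itself lay at a distance of 0.160, against 0.060 for the nearest. On the trimmed-mean scale its ratios were 0.804 for EA over PR, 1.14 for LT over PR and 0.705 for EA over LT. With 3 libraries this likeness rests on 2 ratios that share PR.

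miRNAs encoded beside let-7 genes in mammals were followed as well. A start of miR-99a-5p lay 702 bases from let-7c on its scaffold and had 2007 reads in EA, 1514 in LT and 1627 in PR. miR-100-5p lay 5065 bases from the let-7a copy on scaffold 149717, with 1301, 992 and 1001 reads for the same libraries. miR-125b-5p had 1594, 1490 and 1648, and was not found on a scaffold with a member. The seeds of miR-99 and miR-100 gave 2 starts of at least 100 reads and that of miR-125 gave 1. Thus miR-99b-5p and miR-125a-5p did not reach 100 placed reads. A form without a matching scaffold leaves no placed reads, so this does not bound their levels in the liver. let-7c had 63264 reads in EA, 60274.5 in LT and 66840 in PR, far above miR-99a in each library.

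Of the other family members, let-7e had no read that shared 18 bases with its form and let-7g none either. By counting error alone, a count of 0 allows up to 3 placed reads with that start, or 0.463 CPM in EA, 0.597 in LT and 0.557 in PR. The let-7g form did occur inside 50 reads that began further upstream, 17 in EA, 7 in LT and 26 in PR. Only reads placed on the genome scaffolds were in the table, so a form without a matching scaffold leaves no reads. The limits do not cover that case and do not bound the level of let-7e or let-7g in the liver.

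The 3′ ends were read from the adapter, which was found in 93.4% of family reads in EA, 94.5% in LT and 90.4% in PR. Reads of 22 nt made up 65.6% of family inserts in EA (65.5 to 65.7) and 66.9% in LT (66.8 to 67.0), against 68.5% in PR (68.4 to 68.6). Reads of 23 nt made up 22.2% in EA and 21.4% in LT, against 19.8% in PR. Reads of 21 nt held 7.27% in EA, 6.92% in LT and 7.17% in PR. The mean insert was 22.20 nt in EA, 22.20 nt in LT and 22.17 nt in PR. Among all other placed reads, most of them miR-122-5p, the 23-nt share was 34.7% in EA and 35.1% in LT, against 26.3% in PR, a wider gap in the same direction.

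The quality of the adapter bases differed between the libraries. In 22-nt let-7f inserts, cycle 24, the second adapter base, was misread in 1.48% of EA, 0.754% of LT and 9.14% of PR reads. With the adapter read without a mismatch, the 22-nt share was 65.2% in EA and 66.6% in LT, against 66.0% in PR, so LT then lay above PR. Allowing 2 mismatches it was 65.9% in EA and 67.2% in LT, against 69.5% in PR. The 22-nt difference of LT from PR is thus within what the reading of the adapter moves.

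The longer forms that the end results turn on are shown for let-7a, let-7b, let-7f and let-7i, with the bases beyond the mature form in capitals. Each held at least 5% of its member in at least 1 library.
let-7a-5p plus T: tgaggtagtaggttgtatagttT
let-7a-5p plus A: tgaggtagtaggttgtatagttA
let-7b-5p plus T: tgaggtagtaggttgtgtggttT
let-7b-5p plus TT: tgaggtagtaggttgtgtggttTT
let-7b-5p plus AT: tgaggtagtaggttgtgtggttAT
let-7f-5p plus T: tgaggtagtagattgtatagttT
let-7f-5p plus A: tgaggtagtagattgtatagttA
let-7i-5p plus T: tgaggtagtagtttgtgctgttT

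The base after the mature form is T on the scaffolds of let-7a, let-7b, let-7c and let-7d and at 1 of 2 let-7f positions. It is G at the other let-7f position and at miR-98, and it is not known for let-7i. A 3′ T can therefore be genomic in let-7a to let-7d and in part of let-7f, while a 3′ A matched the genome at none of the 9 positions where the next base was read. In let-7b the forms plus TT and plus AT matched its position nowhere.

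Inserts of the mature form alone were a smaller share in the hibernating libraries than in PR. Over the family they were 62.9% in EA (62.8 to 63.0) and 65.0% in LT (64.9 to 65.1), against 66.7% in PR (66.6 to 66.8). In let-7a they were 55.3% in EA and 55.9% in LT, against 61.4% in PR. In let-7f they were 67.2% in EA and 69.6% in LT, against 70.9% in PR. In 6 of 7 members the EA share lay below PR with intervals apart, and in 6 of 7 the LT share did. The exception was miR-98, at 65.5% in EA and 63.1% in LT, against 61.0% in PR, with overlapping intervals. Of 59 other abundant starts, 47.5% had a lower share in EA than in PR with intervals apart and 5.08% a higher one, and in LT these were 40.7% and 6.78%. In EA against LT, 2 of 7 members were lower and none higher, beside 23.7% and 5.08% of the other starts. The members are mostly deeper than those starts, which narrows their intervals. With the adapter read without a mismatch, the mature-form share was 62.9% in EA and 65.1% in LT, against 64.7% in PR, so LT again turned above PR and EA did not.

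Inserts of the mature form plus T only were a larger share in the hibernating libraries than in PR. It held 11.97% of family inserts in EA (11.90 to 12.04) and 11.8% in LT (11.7 to 11.9), against 9.90% in PR (9.83 to 9.97). In let-7a it was 17.6% in EA and 18.0% in LT, against 12.8% in PR. In let-7c it was 16.8% in EA and 18.1% in LT, against 13.2% in PR. In let-7i, where it was largest, it was 38.0% in EA and 39.3% in LT, against 32.1% in PR. let-7d stood at 13.7% in EA and 15.6% in LT, against 10.9% in PR, and let-7f at 8.86% in EA and 8.46% in LT, against 6.90% in PR.

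These 5 of 7 members had a higher plus-T share than PR with intervals apart in EA, and 5 of 7 did in LT. No member was lower. Of 59 other abundant starts, 37.3% were higher in EA and 6.78% lower, and in LT 39% were higher and 3.39% lower. Many of these other starts thus differed in the same direction. Starts that are base variants of the same RNA, such as miR-122-5p, were not merged. The percentages therefore do not count separate small RNAs. As for the mature form, the members are mostly deeper than those starts, which narrows their intervals. In EA against LT, 1 member was higher and 3 lower, beside 8.47% and 8.47% of the other starts. let-7b, at 30.3% in EA and 31.9% in LT, against 31.0% in PR, and miR-98, at 7.34% in EA and 5.96% in LT, against 4.69% in PR, had overlapping intervals. The direction held with the adapter read without a mismatch, at 12.21% in EA and 12.005% in LT, against 10.73% in PR, and with 2 mismatches, at 11.9% in EA and 11.7% in LT, against 9.78% in PR. Without let-7f the plus-T share was 20.2% in EA and 21.1% in LT, against 17.2% in PR.

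The mature form plus A only differed little between libraries. Over the family it was 10.5% in EA (10.4 to 10.6) and 10.3% in LT (10.2 to 10.4), against 10.3% in PR (10.2 to 10.3). Against PR, 2 of 7 members were higher in EA with intervals apart and 1 was lower, beside 11.9% and 10.2% of the other abundant starts. In LT 2 were higher and none lower than in PR, beside 8.47% and 6.78%, and in EA against LT 1 was higher and none lower, beside 5.08% and 6.78%. let-7i stood at 12.9% in EA and 12.5% in LT, against 11.1% in PR, and let-7d at 11.1% in EA and 12.3% in LT, against 10.7% in PR. Inserts that differed from the mature form within their last bases were 4.57% in EA and 3.25% in LT, against 3.06% in PR. There were 1.14 plus-T reads for each plus-A read in EA (1.13 to 1.15) and 1.15 in LT (1.13 to 1.16), against 0.964 in PR (0.954 to 0.974). In let-7a the same ratio was 1.38 in EA and 1.39 in LT, against 1.03 in PR. With the adapter read without a mismatch, the plus-A share was 11.04% in EA and 10.82% in LT, against 11.62% in PR, so its order depends on how the adapter was read.

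**Figure D4:**
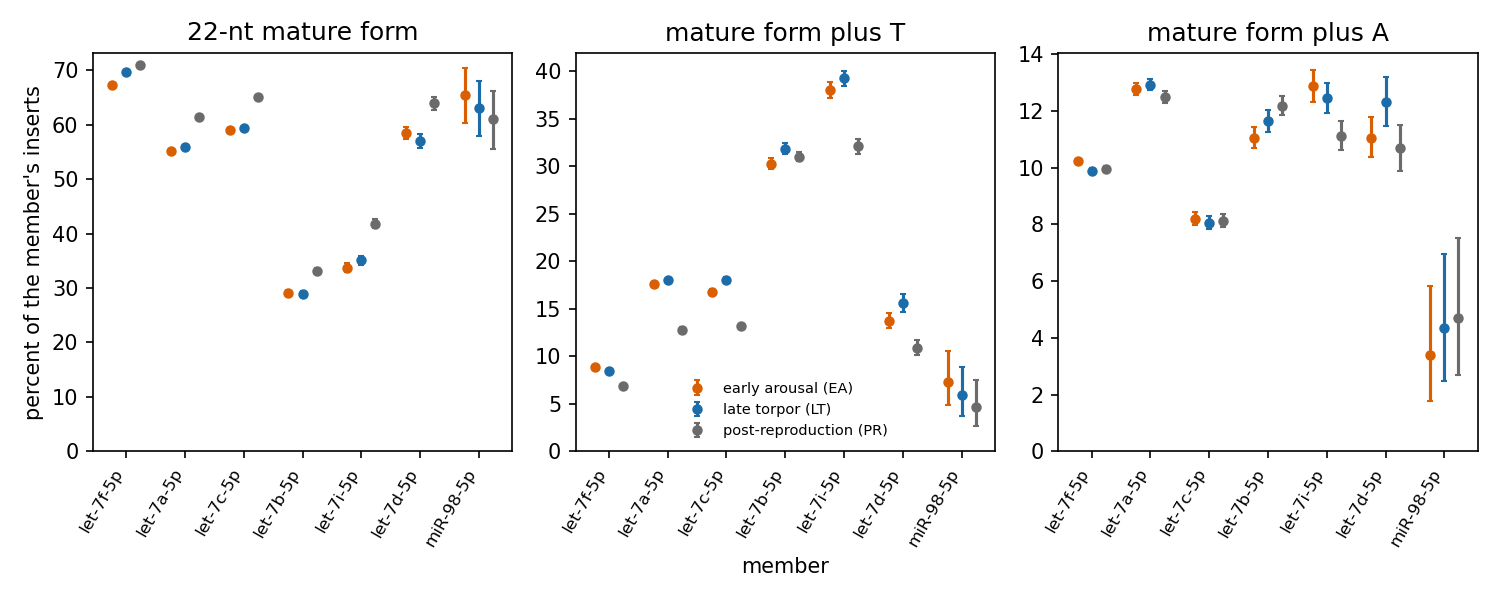
Percent of each member's inserts that are the mature form alone (left), the mature form plus T only (middle) and the mature form plus A only (right) in the early arousal, late torpor and post-reproduction libraries; bars are exact binomial 95% intervals. The plus-T share of let-7a-5p is 17.6% in EA and 18.0% in LT, against 12.8% in PR, while its plus-A share lies between 12.5% and 12.9%.

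Members differed more in their ends than the libraries did. let-7b had the fewest inserts of the mature form alone, 29.1% in EA and 28.9% in LT, against 33.2% in PR. It also had the most with other added bases, 12.3% in EA and 13.8% in LT, against 10.9% in PR, much of it the plus-AT form at 5.07% in EA and 5.56% in LT, against 5.22% in PR. Its mean insert was 22.91 nt in EA and 22.97 nt in LT, against 22.83 nt in PR. let-7i was next, at 33.7% mature form in EA and 35.1% in LT, against 41.8% in PR. let-7f kept the most, with a mean insert of 22.13 nt in EA and 22.12 nt in LT, against 22.10 nt in PR.

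The 5′ ends were far more uniform. Reads that began within 3 bases of the mature start, but not on it, were 0.274% of let-7a reads in EA, 0.261% in LT and 0.271% in PR, and 0.202%, 0.168% and 0.151% of let-7f reads for the same libraries. let-7b had the smallest shares among members with over 1000 reads in each library, from 0.0773% to 0.0919%. The partner arm, the 3p strand of the hairpin, was scarce. The window downstream of let-7a held 84 reads in all 3 libraries, 31 in EA, 33 in LT and 20 in PR, and it could not be divided between 2 copies of the gene. That of miR-98 held 19, those of let-7f 11 and 5, that of let-7d 10 and that of let-7c 2. No read was found there for let-7b, let-7i or the let-7a copy on scaffold 149717. Of let-7i the leading 18 bases were placed, so whether its scaffold holds the partner arm is not known.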

How the data were processed

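Small RNA of 18 to 30 nt was cut from a gel, ligated to adapters and amplified by 15 cycles of PCR, per the labels' protocols. The authors deposited 1 table, whose entries give the reads as raw counts per sequence and stage. All reads are 30 bases long, with the placed leading part in capitals. Aligner and genome build were not given in the sources used here. Each distinct sequence was counted once per stage, however many positions it had; 0 disagreed in count between positions.

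No miRNA table was at hand, so each mature form was taken as the most abundant insert that holds the seed and the bases known to tell the members apart. Adapters were searched with up to 1 mismatch for inserts of 18 to 26 nt, so at least 4 adapter bases were read. Counts were scaled by trimmed-mean factors (30% trimmed on ratio, 5% on abundance) over 18-base starts of at least 100 reads: 1.18 for EA, 0.869 for LT and 0.977 for PR. Ratios have exact conditional binomial intervals and shares have exact binomial (Clopper-Pearson) ones, from scipy 1.17.1 in Python 3.11.15 with numpy 2.4.6. Figures were drawn with matplotlib 3.10.9. PCR reads carry no molecular identifiers. The code was tested on simulated data.

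Named were the 7 members, let-7e, let-7g, the miRNAs encoded beside let-7 genes, the 3 nearest starts and end forms of at least 5%. Names of starts come from general knowledge of miRNA sequences. The members, lists and tests were chosen with earlier results of these data known. The background for 3′ ends was the other starts of at least 1000 reads in each library with 500 inserts and a most abundant insert of at most 23 nt. Other scalings, read choices and adapter matches were tried.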

Additional observations from a re-analysis of the deposited data

How the results depend on the processing

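No paired analysis was possible because each stage has 1 library. Shares within the family do not depend on scaling; under the 4 other choices of reads the order of members was the same, the largest move was 5.32 percentage points (identical inserts), and the let-7b share ratio ran from 0.677 to 0.730 for EA over PR and from 0.608 to 0.670 for LT over PR. With identical inserts alone let-7a turned to 0.958 for LT over PR, and miR-98 to 1.06 for EA over PR, 1.01 for LT over PR and 1.05 for EA over LT. With 20 shared bases the miR-98 share was 0.0404% in EA and 0.0399% in LT, so EA over LT turned there too. The cause of the moves below was not tested, except where named.

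For the family's log2 ratio of EA over PR, plain totals gave 0.11, all placed reads 0.11, median of ratios -0.18, starts of at least 1000 reads -0.031 and leaving out mixed starts -0.13. A shared start of 20 bases gave -0.18, singly placed reads -0.47 and identical inserts -0.20. For LT over PR plain totals gave 0.052, all placed reads 0.058, median of ratios 0.20, starts of at least 1000 reads 0.31, 20 bases 0.21, singly placed reads -0.20 and identical inserts 0.25. For EA over LT plain totals gave 0.060, all placed reads 0.050, starts of at least 1000 reads -0.34, no mixed starts -0.35, 20 bases -0.39, singly placed reads -0.26 and identical inserts -0.44. Singly placed reads leave only let-7b, let-7d, let-7i and miR-98, and give no value for the other members.

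Member log2 ratios that turned round for EA over PR were, with plain totals, all placed reads and starts of at least 1000 reads in turn, let-7a at 0.21, 0.20 and 0.061, let-7f at 0.15, 0.14 and 0.0023, and miR-98 at 0.013 and 0.0085 with the first pair. With identical inserts let-7d was at -0.011. For LT over PR let-7i turned to -0.12 with plain totals, -0.11 with all placed reads and -0.14 with identical inserts, and miR-98 to -0.010 with plain totals and -0.0042 with all placed reads. With starts of at least 1000 reads let-7c turned to 0.039 and let-7d to 0.085. For EA over LT, plain totals and all placed reads gave let-7a 0.12 and 0.11, let-7b 0.18 and 0.17, let-7c 0.14 and 0.13, let-7f 0.031 and 0.021, and miR-98 0.023 and 0.013, and plain totals gave let-7i 0.0096.

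The number of members at least 1.5-fold different for EA over PR was 0 with plain totals, 0 with all placed reads, 0 with starts of at least 1000 reads and 0 with no minimum count. With identical inserts it was 2, let-7b at -0.76 and let-7i at -0.64.

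The 22-nt share for EA, LT and PR was 65.9%, 67.2% and 68.8% with 20 bases, and 38.4%, 36.5% and 41.5% with singly placed reads. It was 65.2%, 66.6% and 66.0% with no adapter mismatch, 66.1%, 67.4% and 69.0% with inserts of 18 to 24 nt, and 65.9%, 67.2% and 69.5% with 2 mismatches. With no mismatch the mature form was 65.1% in LT and 64.7% in PR, plus A 11.04%, 10.82% and 11.62% for EA, LT and PR, and plus T 12.21%, 12.005% and 10.73%. With 2 mismatches the mature form was 63.1% in EA and 67.5% in PR, plus A 10.4%, 10.2% and 9.96%, and plus T 11.7% in LT and 9.78% in PR. The match with 2 mismatches, the adapter alternatives for end forms, and the scalings over starts of at least 1000 reads and without mixed starts were chosen after seeing the data. Letting let-7e and let-7g compete changed no log2 ratio, member share, count of members or 22-nt share; it was not run for the end forms. At 368 to 383 reads, miR-98 is the member whose depth limits it most.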

Other observations

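Reads with the let-7 seed that shared fewer than 18 bases with any member made up 2.02% of all reads with the seed in EA and 1.84% in LT, against 1.05% in PR. Among them a start that is 1 base away from let-7b (G12A) and also 1 base away from let-7f had 1609 reads in EA, 1042 in LT and 1306 in PR. The others most often met carried several changes at once, such as T9G, T13A and T16G against let-7a, with 3054 reads in EA and 2639 in LT, against 1373 in PR.

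A wider group of starts held, at each of the first 18 bases, either the base of miR-122-5p or that of a let-7 member, and differed from each by at least 2 bases. It had 94 of the 824 starts of at least 100 reads, and 82750 reads in EA, 49966 in LT and 64785 in PR, or 1.47%, 0.853% and 1.15% of placed reads. The most abundant is shown with the bases that differ from let-7f listed after it.
mixed start: tggggtgggagattggag
It differs from let-7f by A3G, A7G, T9G, T16G and T18G and from miR-122-5p by 5 bases as well, and had 27365 reads in EA, 13817 in LT and 21667 in PR. Of the 94 starts, 18 carried the let-7 seed, with 12873 reads in EA and 12645 in LT, against 5281 in PR. How such reads came about was not tested, and none of them was counted as let-7.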
